A study of Mus musculus with 12 samples.

Results

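The CBL mutant and the RUNX1 mutant were compared directly in haematopoietic stem and progenitor cells (HSPC) of mouse bone marrow, with 2 RNA sequencing libraries for each. These are 4 of the 12 libraries of the series, and 11928 of the 28987 genes of the deposited table entered the comparison because they reached 1 TPM or more in at least 2 of the 4. The second-highest value lay between 1 and 1.1 TPM for 174 genes just inside this limit and between 0.9 and 1 TPM for 173 genes just outside it, and 174 genes passed through the CBL mutant pair alone and 192 through the RUNX1 mutant pair alone. TPM is the unit of the deposited values, a gene's share of the transcripts of its library corrected for its length. All mice had the C57BL/6 strain background, and the labels give 4 HSPC genotypes, namely RUNX1 mutant, CBL mutant, CBL/RUNX1 mutant (called the double mutant below) and wild type, with no allele, promoter, age or way of introducing the mutation. Per the labels' protocols, marrow was taken from individual mice, HSPC were enriched by positive selection for CD117, and the mutant clone was sorted by FACS. The labels do not say what was sorted from wild type marrow, and an effect of preparation and an effect of genotype cannot be told apart. The 4 remaining HSPC libraries, 2 wild type and 2 double mutant, helped to estimate the spread and are quoted for reference.

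CBL is an E3 ubiquitin ligase that is recruited to activated receptor tyrosine kinases and cytokine receptors, KIT (CD117) among them, and tags them for internalisation and degradation. RUNX1 is a DNA-binding transcription factor that works with its partner CBFB and is needed for the emergence of blood stem cells, for megakaryocyte maturation and for lymphoid development. Both genes are recurrently mutated in human myeloid neoplasms, myelodysplastic syndrome among them.

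The RUNX1 mutant pair was less alike than the other pairs. Over the genes tested, the difference between replicate libraries on the log2(TPM + 1) scale had an SD of 0.708 in the RUNX1 mutant, against 0.372 in the CBL mutant, 0.282 in the wild type and 0.336 in the double mutant. A difference of a log2 of 1 or more within the pair was found for 1444 genes (12.11%) in the RUNX1 mutant and for 290 genes (2.43%) in the CBL mutant. The 2 RUNX1 mutant libraries are therefore given separately throughout. All libraries carried a large load of mature myeloid RNA for cells selected on CD117: S100a8 and S100a9, the calprotectin genes of neutrophils and their precursors, took 26.9% and 21.5% of the TPM in the CBL mutant libraries and 13.3% and 27.0% in the RUNX1 mutant ones. Kit itself was present in every library, at 37.5 and 42.4 TPM in the CBL mutant and at 229 and 26.2 TPM in the RUNX1 mutant. In such bulk samples, fewer cells of a type and less RNA per cell cannot be told apart. TPM hold no read numbers, and the depth is unknown.

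Each mutated gene was more abundant in the libraries of its own mutant. Runx1 stood at 12.2 and 16.4 TPM in the CBL mutant libraries and at 170 and 45.3 TPM in the RUNX1 mutant ones, beside 257 and 248 TPM in the double mutant and 12.7 and 11.3 TPM in the wild type. The groups did not overlap, and Runx1 was lower in the CBL mutant by 2.42 ± 0.405 on the log2 scale (log2 difference -2.42, CBL minus RUNX1 mutant, SE; adjusted p = 0.0485). Cbl stood at 73.7 and 81.3 TPM in the CBL mutant and at 24.9 and 32.1 TPM in the RUNX1 mutant, beside 103 and 115 TPM in the double mutant and 31.0 and 17.9 TPM in the wild type. Its groups did not overlap either, but the log2 difference of 1.55 ± 0.295 did not pass the test (adjusted p = 0.0667). The Runx1 call was lost with either CBL mutant library left out, with an adjusted p of 0.28 without the first and 0.178 without the second. Of the relatives, Cblb was listed at 4.03 and 3.22 TPM against 6.39 and 2.48 TPM, and Cbfb, the partner subunit of the RUNX proteins, at 68.5 and 82.5 TPM against 78.9 and 69.7 TPM, both overlapping between the groups. Runx3 reached 31.0 and 32.6 TPM in the CBL mutant and 173 and 42.4 TPM in the RUNX1 mutant, without passing the test.

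In all, 153 genes (1.28% of those tested) were called at an adjusted p under 0.05 by limma with Benjamini-Hochberg adjustment. Of these, 94 (0.788%) were higher in the CBL mutant, with a median size of 1.96 on the log2 scale, and 59 (0.495%) were higher in the RUNX1 mutant, with a median size of 1.60. The fit took the same spread for every HSPC group, although the RUNX1 mutant pair was less alike than the others. The SE and adjusted p given here can therefore be too small. For 48 of the 94 both RUNX1 mutant libraries were under 1 TPM, and for 20 of the 59 both CBL mutant libraries were. The libraries of both groups did not overlap for any of the called genes, nor for 4537 of all genes tested (38.0%). Within the RUNX1 mutant pair, 12 of the 153 (7.84%) differed by a log2 of 1 or more. Leaving out a library leaves 1 in its group, whose spread then no longer enters the estimate. Without either RUNX1 mutant library, the pair with the widest spread is lost to it. More calls and the keeping of the 153 genes are then no test of the choice of RUNX1 mutant library. The number of calls depended on which libraries entered the fit. It was 616 without RUNX1 mutant library 1 and 2021 without library 2, with 150 and 153 of the 153 genes among them, while it was 15 without CBL mutant library 1, 55 without CBL mutant library 2, 8 without either wild type library, and 24 and 26 without the first or second double mutant library. Of 39 called genes or list members that the naming rule gives, 5 stayed under 0.05 with any 1 of the 8 HSPC libraries left out, namely Tcf7, Tcrg-C2, Myl10 and Cldn1 on the CBL mutant side and Afdn on the RUNX1 mutant side. Leaving out CBL mutant library 1 ended 32 of the 39 calls, CBL mutant library 2 ended 22, either wild type library ended 33, and the double mutant libraries ended 28 and 27.

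**Figure D1:**
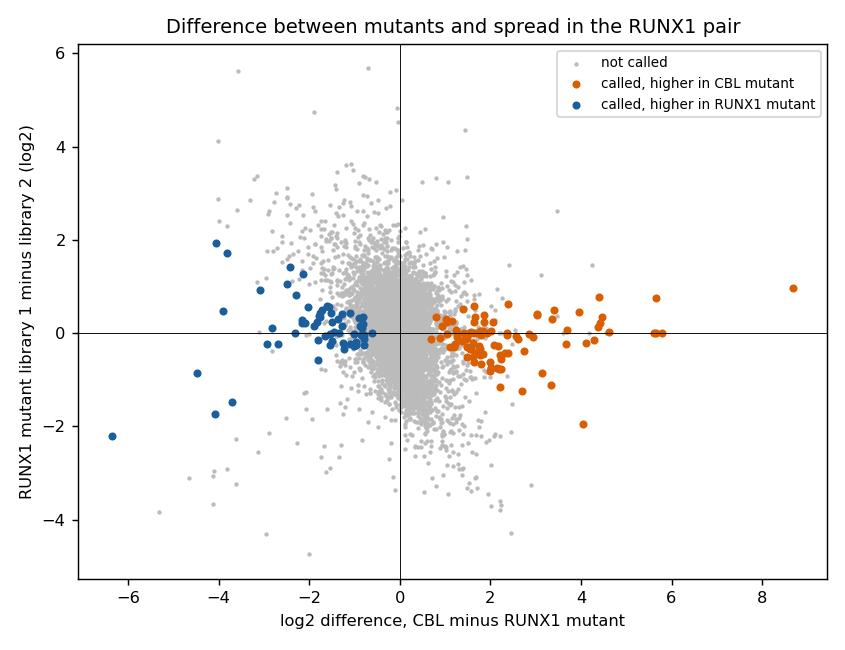
Each point is 1 of 11928 genes. The horizontal axis is the log2 difference CBL minus RUNX1 mutant, the vertical axis the log2 difference between the 2 RUNX1 mutant libraries, and coloured points are the 94 and 59 called genes, most of which lie near 0 on the vertical axis.

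T cell genes stood out among those higher in the CBL mutant. Of the 29 T lineage genes listed and measured, 16 passed the filter, 5 of them through the CBL mutant pair alone, so that a count over the 16 leans towards that group. Of the 16, 8 were called higher in the CBL mutant and none in the RUNX1 mutant, against 0.788% and 0.495% of all genes, and their median log2 difference was 1.85, against 0.01 over all genes. Tcf7, a transcription factor of early T cell and innate lymphoid commitment (chr11:52252371-52283014, GRCm38), was listed at 92.8 and 60.0 TPM in the CBL mutant libraries and at 3.71 and 1.92 TPM in the RUNX1 mutant ones. Both wild type libraries (1.94 and 1.89 TPM) and both double mutant libraries (0.971 and 1.17 TPM) were as low as the RUNX1 mutant or lower. The log2 difference of Tcf7 was 4.46 ± 0.258 (adjusted p = 0.00158), and its highest adjusted p with 1 library left out was 0.0156.

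The constant regions of the T cell receptor genes were also higher in the CBL mutant. Trbc1, the first of the beta chain constant genes, was listed at 81.8 and 32.3 TPM in the CBL mutant and at 1.5 and 1.06 TPM in the RUNX1 mutant (log2 difference 4.61 ± 0.522, adjusted p = 0.0178), and Trbc2 at 33.1 and 32.7 TPM against 0.903 and 0.509 TPM (4.38 ± 0.578, adjusted p = 0.027). These are near-identical copies, so the split of reads between them is uncertain. Of the gamma chain constant genes, which are also similar to each other, Tcrg-C2 stood at 26.6 and 24.2 TPM against 1.16 and 1.15 TPM (3.67 ± 0.215, adjusted p = 0.00158), and Tcrg-C1 and Tcrg-C4 were called as well, with log2 differences of 3.02 and 3.96. Joining segments of the beta locus are very short and so have imprecise TPM. Over 13 genes they summed to 503 and 130 TPM in the CBL mutant and to 2.3 and 0 TPM in the RUNX1 mutant. Of these, 10 passed the filter and 5 were called higher in the CBL mutant, against 0.788% of all genes tested. In the RUNX1 mutant libraries only 1 and 0 of the 13 reached 1 TPM. The segments thus passed almost only through the CBL mutant pair, and this count leans towards that group. All 50 joining segments of the alpha locus were listed at 0 in all 4 libraries, and the alpha constant gene reached 4.8 and 1.78 TPM in the CBL mutant. Without CBL mutant library 1 the calls of Trbc1, Trbc2, Tcrg-C1 and Tcrg-C4 were lost, and without library 2 those of Trbc2 and Tcrg-C1.

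**Figure D2:**
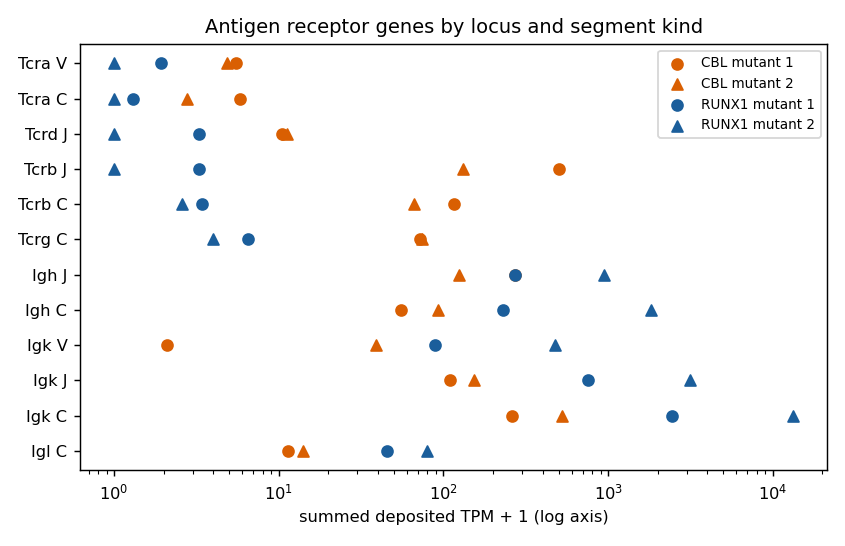
Summed TPM of antigen receptor genes by locus and kind of segment (V variable, J joining, C constant), with 1 added, on a log axis, for each of the 4 libraries. T cell receptor loci are at the top and immunoglobulin loci at the bottom: beta and gamma constant genes are at 65.0 TPM or more in both CBL mutant libraries, whereas immunoglobulin kappa constant is higher in both RUNX1 mutant libraries.

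Among signalling genes of the T lineage, Lck, the Src family kinase that starts T cell receptor signalling, was listed at 35.9 and 20.7 TPM in the CBL mutant and at 2.83 and 1.18 TPM in the RUNX1 mutant (log2 difference 3.39 ± 0.391, adjusted p = 0.0182). Themis, a regulator of thymocyte selection, was listed at 5.02 and 3.63 TPM against 0.744 and 0.317 TPM (1.86 ± 0.24, adjusted p = 0.0252). Bcl11b, a T cell commitment factor, was low, at 2.24 and 1.09 TPM against 0.0437 and 0.054 TPM, and did not pass the test (1.31 ± 0.277, adjusted p = 0.0862). Of the genes that define mature T cells, Cd3e, Cd4 and Cd8a were under 1 TPM in all 4 libraries. Cd3e stood at 0.0409 and 0.0388 TPM against 0.0793 and 0.0331 TPM, Cd4 at 0.743 and 0.193 TPM against 0.363 and 0.22 TPM, and Cd8a at 0.649 and 0.497 TPM against 0.536 and 0.452 TPM. Other T cell genes had higher values in both CBL mutant libraries without being called. Cd3d stood at 1.74 and 1.89 TPM against 1.55 and 0.804 TPM, Cd247, the zeta chain gene of the receptor complex, at 3.94 and 1.62 TPM against 1.07 and 0 TPM, and Thy1, a surface protein of T cells, at 5.97 and 4.49 TPM against 0.979 and 1.69 TPM. Cd3g, at 0.445 and 1.52 TPM against 0.0612 and 0.359 TPM, and Cd5, at 0.977 and 0.883 TPM against 0.0257 and 0.172 TPM, did not pass the filter. Ptcra, the pre-T cell receptor alpha gene, was listed at 0 in all 8 HSPC libraries. The calls of Lck and Themis were lost without CBL mutant library 1, and that of Themis also without library 2. The whole list summed to 411 and 280 TPM in the CBL mutant and to 91.7 and 52.8 TPM in the RUNX1 mutant.

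Genes of natural killer and cytotoxic cells were partly higher too. Of 24 listed genes 12 passed the filter, 2 of them through the CBL mutant pair alone, and 4 were called, all higher in the CBL mutant, a direction in which 0.788% of all genes tested were called, with a median log2 difference of 1.26 over the 12. Gzma, which encodes the cytotoxic protease granzyme A, was listed at 15.6 and 6.80 TPM in the CBL mutant and at 0.303 and 0 TPM in the RUNX1 mutant (log2 difference 3.36 ± 0.38, adjusted p = 0.0178). Il18r1, a chain of the interleukin 18 receptor, was listed at 25.0 and 13.6 TPM against 1.21 and 3.34 TPM (2.70 ± 0.444, adjusted p = 0.0474). Cd7 and Il2rb, surface receptors of lymphoid cells, were called as well, with log2 differences of 2.32 and 1.77. Gzmb, granzyme B, at 9.38 and 6.66 TPM against 0.322 and 1.28 TPM, did not pass (adjusted p = 0.0536). Ncr1, Eomes and Tbx21, which define natural killer cells, stayed under 0.4 TPM in every CBL and RUNX1 mutant library, and Ifng was listed at 0. The part that cells of another type played in these differences was not tested. Without CBL mutant library 1, the calls of Gzma, Il18r1, Cd7 and Il2rb were lost, and without library 2 those of Il18r1 and Il2rb.

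The naming rule gives 12 genes for the CBL mutant side, and besides the T cell genes above these are Gem, Npy, Myl10, Cldn1, Lmo1 and Lcn4. Myl10, a myosin light chain gene, was listed at 49.2 and 64.7 TPM in the CBL mutant and at 2.33 and 1.96 TPM in the RUNX1 mutant (log2 difference 4.28 ± 0.251, adjusted p = 0.00158), beside 8.17 and 9.21 TPM in the wild type. Cldn1, a tight junction protein, was listed at 20.3 and 15.4 TPM against 0 and 0.156 TPM (4.11 ± 0.223, adjusted p = 0.00158), beside 9.49 and 9.67 TPM in the wild type and under 0.1 TPM in both double mutant libraries. Lmo1, a LIM-only transcriptional cofactor that acts as an oncogene in T cell leukaemia, was listed at 34.8 and 45.9 TPM against 0.345 and 3.61 TPM (4.04 ± 0.558, adjusted p = 0.0282), again with an intermediate wild type, at 24.5 and 23.1 TPM. Thus for Cldn1 and Lmo1 the RUNX1 mutant and the double mutant lay low and the wild type and the CBL mutant lay high. Npy, neuropeptide Y, at 39.1 and 18.4 TPM against 0.922 and 0 TPM, and Gem, a small GTPase, at 51.6 and 9.80 TPM against 0.24 and 0.0224 TPM, were near 0 in the wild type too, at 0.484 and 0.489 TPM and at 0.294 and 0.197 TPM. Their log2 differences were 4.41 ± 0.408 (adjusted p = 0.0103) and 4.43 ± 0.726 (adjusted p = 0.0474). Lcn4, a lipocalin, was listed at 27.7 and 6.32 TPM against 0.182 and 0.0765 TPM (3.70 ± 0.579, adjusted p = 0.0404). The call of Lmo1 was lost without either CBL mutant library, and those of Npy and Gem without CBL mutant library 1. The calls of Gem and Lcn4 were lost without RUNX1 mutant library 1.

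On the RUNX1 mutant side the largest difference was that of Ngfr, the low-affinity neurotrophin receptor (chr11:95568818-95587735, GRCm38). It was nearly absent from the CBL mutant libraries, at 0.03 and 0.0431 TPM, and abundant in the RUNX1 mutant ones, at 49.6 and 168 TPM. The wild type, at 160 and 136 TPM, and the double mutant, at 92.0 and 92.6 TPM, were also high, so the CBL mutant libraries alone were low. The log2 difference of Ngfr was -6.35 ± 0.604 (adjusted p = 0.011), and its call was lost without either CBL mutant library. Afdn, an adaptor of cell adhesion, was listed at 1.73 and 1.05 TPM against 20.1 and 17.2 TPM (-2.92 ± 0.191, adjusted p = 0.00271), and its highest adjusted p with 1 library left out was 0.0228. Tceal8, a transcription elongation factor-like gene, was listed at 1.78 and 0.612 TPM against 15.1 and 12.8 TPM (-2.68 ± 0.273, adjusted p = 0.0133). Both genes had intermediate wild type values and double mutant values close to those of the RUNX1 mutant. Gng11, a G protein gamma subunit, was listed at 0.394 and 0.59 TPM against 61.2 and 10.9 TPM (-4.06 ± 0.55, adjusted p = 0.0279), and Pdzk1ip1, a neighbour of Tal1 on chromosome 4, at 0.863 and 0.154 TPM against 47.1 and 9.67 TPM (-3.81 ± 0.559, adjusted p = 0.0362). Il11ra1, the interleukin 11 receptor alpha chain, was listed at 6.30 and 6.05 TPM against 62.1 and 18.1 TPM (-2.14 ± 0.361, adjusted p = 0.0486). In these 3 genes RUNX1 mutant library 1 was well above library 2, yet both lay above the CBL mutant pair. Trmt112-ps2 is a processed pseudogene that shares sequence with its parent gene, so its values are uncertain. It was listed at 0 and 1.35e-07 TPM in the CBL mutant and at 20.3 and 27.0 TPM in the RUNX1 mutant (-4.48 ± 0.568, adjusted p = 0.0244). The calls of Gng11, Pdzk1ip1, Il11ra1 and Trmt112-ps2 were lost without either CBL mutant library.

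**Figure D3:**
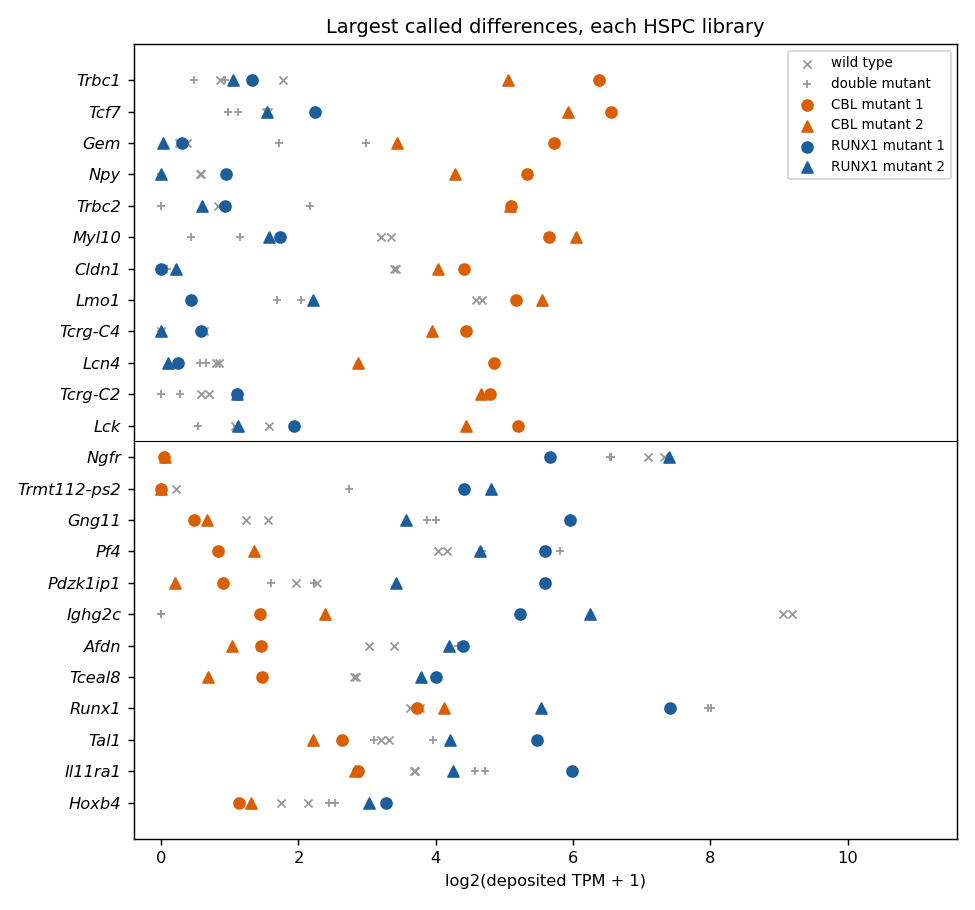
Level of the 24 genes with the largest called differences, as log2(TPM + 1), in every HSPC library. The line divides the 12 genes higher in the CBL mutant from the 12 higher in the RUNX1 mutant; circles and triangles are libraries 1 and 2, grey crosses the wild type and grey plus signs the double mutant, and in each row both orange points lie on one side of both blue points.

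Megakaryocyte and platelet genes ran the other way. Of the 27 listed, 23 passed the filter, 6 of them through the RUNX1 mutant pair alone. Of the 23, 2 were called, both higher in the RUNX1 mutant (0.495% over all genes). The libraries did not overlap for 14 genes higher there and for 2 higher in the CBL mutant (18.7% and 19.3% over all genes). Their median log2 difference was -1.03, and it was -0.82 without RUNX1 mutant library 1 and -1.33 without library 2. Pf4, the platelet chemokine (chr5:90772435-90773383, GRCm38), was listed at 0.771 and 1.55 TPM in the CBL mutant and at 47.0 and 24.0 TPM in the RUNX1 mutant, beside 54.9 and 24.4 TPM in the double mutant and 15.4 and 17.0 TPM in the wild type. The CBL mutant pair was therefore below all other HSPC libraries (log2 difference -3.90 ± 0.358, adjusted p = 0.0103). Itga2b, the platelet integrin alpha chain, was listed at 7.91 and 4.60 TPM against 400 and 38.4 TPM, and Treml1, a receptor of platelet granules, at 0.0976 and 0 TPM against 40.7 and 5.25 TPM. Neither passed the test, with log2 differences of -4.02 and -3.81 and adjusted p of 0.0795 and 0.0536, and both were far higher in RUNX1 mutant library 1 than in library 2. Without CBL mutant library 1, Pf4 lost its call (adjusted p = 0.10).

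Stem and progenitor genes were split. Of 26 tested, 4 passed the filter through the RUNX1 mutant pair alone. In the list, 1 gene was called higher in the CBL mutant and 2 in the RUNX1 mutant (0.788% and 0.495% over all genes). The median log2 difference was -0.47. Leaving out RUNX1 mutant library 1 turned it to 0.15, and leaving out library 2 moved it to -1.17. Mecom, a transcription factor of stem cell self-renewal, was listed at 20.2 and 13.8 TPM in the CBL mutant and at 4.15 and 1.62 TPM in the RUNX1 mutant, beside 0.51 and 0.786 TPM in the double mutant and 68.5 and 47.3 TPM in the wild type (2.38 ± 0.283, adjusted p = 0.0201). Tal1, a master regulator of blood and megakaryocyte-erythroid fate, went the other way, at 5.21 and 3.65 TPM against 43.6 and 17.5 TPM (-2.29 ± 0.341, adjusted p = 0.037). Hoxb4, a homeobox gene that expands stem cells when overexpressed, was listed at 1.19 and 1.48 TPM against 8.72 and 7.12 TPM (-1.81 ± 0.196, adjusted p = 0.0152), and its cluster neighbour Hoxb3 at 0.13 and 0.437 TPM against 6.23 and 3.75 TPM (-2.09 ± 0.215, adjusted p = 0.0133). Hoxa9 leaned to the CBL mutant, at 19.2 and 14.2 TPM against 11.1 and 2.83 TPM, and did not pass (1.49 ± 0.392, adjusted p = 0.142). Without CBL mutant library 1 the calls of Mecom, Tal1, Hoxb4 and Hoxb3 were lost, and without library 2 those of Tal1 and Hoxb4.

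Promoters of Lck, Tal1 and Mecom are shown as examples, because these genes differ between the mutants and a window of each holds a RUNX or GATA motif. These are the letters bound by RUNX1 and by the GATA factors of the megakaryocyte and erythroid lineages. Another listed window of each gene held no such match. Myl10, Pf4, Runx1 and Il11ra1 also had a window with a match and are not shown. Each printed sequence is the 250 bases before a RefSeq start site in GRCm38.p6, 5′ to 3′ on the gene's strand. The motif is in capitals.
Lck, chr4:129573642-129573891, minus strand: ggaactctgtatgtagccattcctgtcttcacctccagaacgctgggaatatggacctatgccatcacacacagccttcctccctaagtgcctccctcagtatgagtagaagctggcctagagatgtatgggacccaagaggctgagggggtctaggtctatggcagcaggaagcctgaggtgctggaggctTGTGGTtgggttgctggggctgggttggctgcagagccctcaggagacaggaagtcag
Tal1, chr4:115056176-115056425, plus strand: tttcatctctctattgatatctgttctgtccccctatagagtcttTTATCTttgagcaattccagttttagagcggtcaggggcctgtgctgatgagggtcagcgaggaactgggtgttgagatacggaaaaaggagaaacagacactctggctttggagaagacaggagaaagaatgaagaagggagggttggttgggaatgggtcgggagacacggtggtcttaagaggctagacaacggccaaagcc
Mecom, chr3:30509760-30510009, minus strand: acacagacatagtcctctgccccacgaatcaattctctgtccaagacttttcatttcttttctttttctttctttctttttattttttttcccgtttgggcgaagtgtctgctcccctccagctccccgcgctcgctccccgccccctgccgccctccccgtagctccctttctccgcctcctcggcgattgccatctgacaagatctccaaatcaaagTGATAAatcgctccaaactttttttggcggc
The RUNX match TGTGGT of Lck starts 58 bases before the start site, the reverse complement TTATCT of a GATA match starts 205 bases before that of Tal1, and the GATA match TGATAA starts 31 bases before that of Mecom. Over windows of 300 bases that also include the 50 bases after the start, TGTGGT or TGCGGT on either strand was held by 17 of 73 promoters of genes called higher in the CBL mutant (23.3%), by 9 of 54 of those called higher in the RUNX1 mutant (16.7%), and by 21.5% of promoters of all genes tested. AGATAA or TGATAA was held by 9.59% and 18.5% of the called promoters and by 10.8% of those of all genes tested. GAGGAAGT, a PU.1 site, was held by 1.37%, 9.26% and 3.38%. Several windows belong to 1 gene, 53 of the 94 and 37 of the 59 called genes matched a promoter entry, and a match is a description of the letters only.

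Receptors of growth factors and cytokines held 4 called genes of 15 tested, all higher in the RUNX1 mutant (0.495% over all genes), although the median of the list was -0.04. Among these were Csf3r, the receptor of the granulocyte growth factor G-CSF, and the beta chains Csf2rb and Csf2rb2 of the interleukin 3 receptor family. Csf3r was listed at 60.4 and 76.6 TPM in the CBL mutant and at 163 and 134 TPM in the RUNX1 mutant (-0.97 ± 0.165, adjusted p = 0.0486). Csf2rb stood at 41.3 and 42.7 TPM against 101 and 67.6 TPM (-0.83 ± 0.11, adjusted p = 0.0267), and Csf2rb2, a close paralogue whose reads may be shared with it, at 6.21 and 5.24 TPM against 29.9 and 14.4 TPM (-1.57 ± 0.217, adjusted p = 0.0282). Il7r, the lymphoid interleukin 7 receptor, was higher in the CBL mutant without passing the test, at 5.23 and 2.48 TPM against 1.98 and 0.171 TPM (adjusted p = 0.195). Without either CBL mutant library, and likewise without either wild type library, none of these 4 receptors was called.

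Of 11 RAS-MAPK output genes tested, Ccnd1 alone was called, higher in the CBL mutant, a direction in which 0.788% of all genes tested were called. Ccnd1, the G1 phase cyclin D1, was listed at 26.3 and 15.2 TPM in the CBL mutant and at 2.25 and 2.42 TPM in the RUNX1 mutant (2.74 ± 0.312, adjusted p = 0.0178), beside 35.7 and 22.1 TPM in the double mutant and 2.98 and 2.78 TPM in the wild type. The RUNX1 mutant was thus close to the wild type, and both genotypes with mutant CBL were higher. The related cyclin Ccnd2 was called too, at 21.7 and 19.2 TPM against 10.6 and 7.25 TPM (1.25 ± 0.169, adjusted p = 0.0279). The feedback genes did not pass: Dusp6 was listed at 21.0 and 10.6 TPM against 3.76 and 6.06 TPM, and Spry2 at 3.23 and 4.03 TPM against 10.5 and 5.61 TPM. The 26 S phase and mitosis genes held no called gene. Mki67, at 61.2 and 63.9 TPM against 52.4 and 86.5 TPM, and Top2a, at 161 and 175 TPM against 158 and 208 TPM, overlapped between the groups. None of 16 CBL family and adaptor genes, 11 immediate early genes and 9 JAK-STAT feedback genes was called. Without CBL mutant library 1 the call of Ccnd1 was lost, and that of Ccnd2 was lost without either CBL mutant library.

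The medians of the secondary and tertiary granule list and of the erythroid list turned on which RUNX1 mutant library was read. For secondary and tertiary granule genes, the median log2 difference over 15 genes was 0.46, but it was -0.40 without RUNX1 mutant library 1 and 1.43 without library 2. All 15 were higher in RUNX1 mutant library 2 than in library 1 by a log2 of 1 or more. Ngp, a granule protein of maturing neutrophils, was listed at 20173 and 18318 TPM in the CBL mutant and at 4941 and 18749 TPM in the RUNX1 mutant, and Ly6g, the surface marker of neutrophils, at 586 and 452 TPM against 26.2 and 384 TPM. Erythroid genes behaved alike: 22 of 25 were higher in library 2 by a log2 of 1 or more, and the median of 0.11 became -0.78 without library 1 and 1.1 without library 2. Klf1, an erythroid transcription factor, was listed at 7.42 and 8.85 TPM against 2.34 and 13.4 TPM. Not every erythroid gene turned: 7 did not overlap and were higher in the RUNX1 mutant, and 2 in the CBL mutant (18.7% and 19.3% over all genes). Among these, the globin gene Hba-a1 stood at 79.0 and 54.2 TPM against 117 and 457 TPM. Hbb-bt went the other way, at 520 and 229 TPM against 69.7 and 186 TPM. Both kept their direction without either RUNX1 mutant library. None of these 40 genes was called. Primary granule genes showed no such split, with Mpo at 1426 and 3512 TPM against 3116 and 2371 TPM, a spread that lay within the CBL mutant pair.

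Several stem and mast cell genes were highest in RUNX1 mutant library 1. Of 26 stem cell genes, 15 were higher there than in library 2 by a log2 of 1 or more and 0 were lower by as much. The 13 mast cell, basophil and eosinophil genes tested were divided, 3 being higher in library 1 and 6 in library 2 by as much, with a median difference of -0.91 (library 1 minus library 2). The basophil protease genes Mcpt8, at 26.8 and 37.1 TPM, and Prss34, at 13.4 and 41.9 TPM, were higher in library 2. Cd34 stood at 49.7 and 50.6 TPM in the CBL mutant and at 287 and 56.5 TPM in the RUNX1 mutant, Gata2, a stem and mast cell transcription factor, at 11.9 and 11.1 TPM against 155 and 16.4 TPM, and Hlf, a stem cell factor, at 1.11 and 0.329 TPM against 56.2 and 4.79 TPM. The mast cell carboxypeptidase Cpa3 was listed at 15.3 and 10.4 TPM against 1181 and 48.2 TPM, and the chymase Cma1 at 0.119 and 0 TPM against 74.5 and 0.288 TPM. Fcer1a, a chain of the IgE receptor, was listed at 1.39 and 0.835 TPM against 97.8 and 12.6 TPM (adjusted p = 0.0521). Hdc, the histamine-producing enzyme, was the called gene of the mast cell, basophil and eosinophil list, at 51.5 and 60.7 TPM against 131 and 112 TPM (-0.97 ± 0.161, adjusted p = 0.0474). It was even between the 2 RUNX1 mutant libraries, and its call was lost without either CBL mutant library. Over all genes tested, 0.495% were called higher in the RUNX1 mutant. Within the RUNX1 mutant pair the widest ratios by the naming rule were those of Slc35d3, Prnp, Cpa3, Slc18a2, Fgf3 and Mdga1, higher in library 1 by a log2 of 3.09 to 5.63, and of Ighm, Ly6g, Ly6f, AA467197, St3gal5 and Ear2, higher in library 2.

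**Figure D4:**
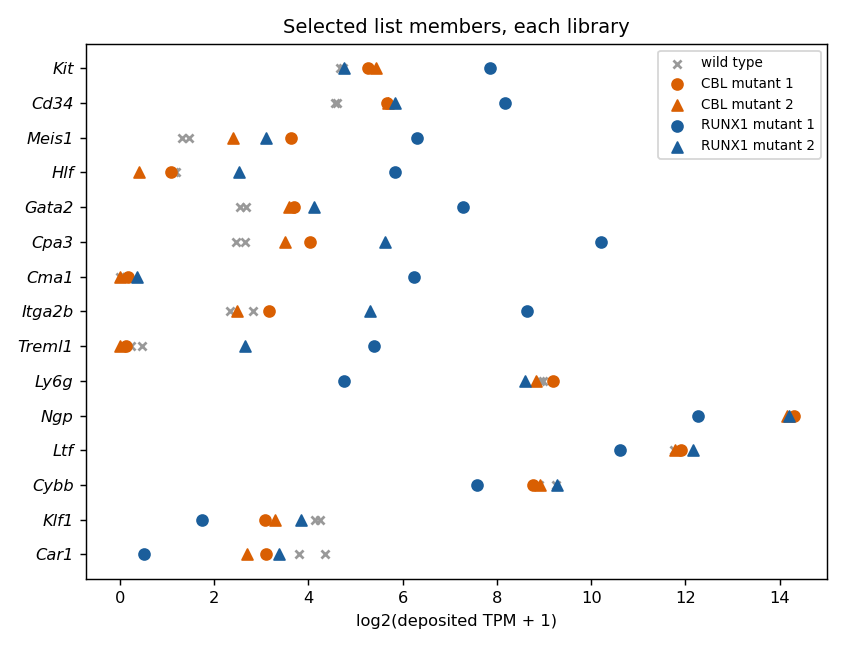
Level of 15 members of the marker lists as log2(TPM + 1), chosen for display after their values were seen, in the CBL and RUNX1 mutant libraries and the wild type. RUNX1 mutant library 1 (blue circles) lies to the right of the other libraries for stem, mast cell and platelet genes from Kit to Treml1, and to the left for neutrophil and erythroid genes from Ly6g to Car1.

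Immunoglobulin genes took less of the TPM in the CBL mutant than in the RUNX1 mutant. As a class they held 0.0735% and 0.0995% of the TPM in the CBL mutant and 0.41% and 2.16% in the RUNX1 mutant. Their share was 0.00834% and 0.00557% in the double mutant, below that of the CBL mutant, and 6.41% and 6.63% in wild type HSPC. Ighg2c, a heavy chain constant gene of secreted antibody, was listed at 1.72 and 4.22 TPM in the CBL mutant and at 36.5 and 75.1 TPM in the RUNX1 mutant (-3.70 ± 0.478, adjusted p = 0.0252). Igkc, the kappa constant gene, was listed at 259 and 526 TPM against 2443 and 13353 TPM (-3.82 ± 0.849, adjusted p = 0.0958), and Jchain, which joins secreted IgM and IgA, at 20.9 and 36 TPM against 77.1 and 288 TPM (adjusted p = 0.184). The groups did not overlap for any of these, and the RUNX1 mutant pair lay between the CBL mutant and the wild type. Ighm, in contrast, was listed at 41.6 and 64.2 TPM against 51.4 and 1020 TPM, with library 1 inside the range of the CBL mutant. Of 12 B cell genes tested, Bank1, a B cell adaptor, was the called member, at 3.44 and 3.60 TPM against 0.436 and 0.856 TPM (1.49 ± 0.234, adjusted p = 0.0403). It passed the filter through the CBL mutant pair alone, and 0.788% of all genes tested were called in that direction. The call of Ighg2c was lost without CBL mutant library 1 (adjusted p = 0.164) and without library 2 (0.0742), as was that of Bank1 (0.241 and 0.182).

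**Figure D5:**
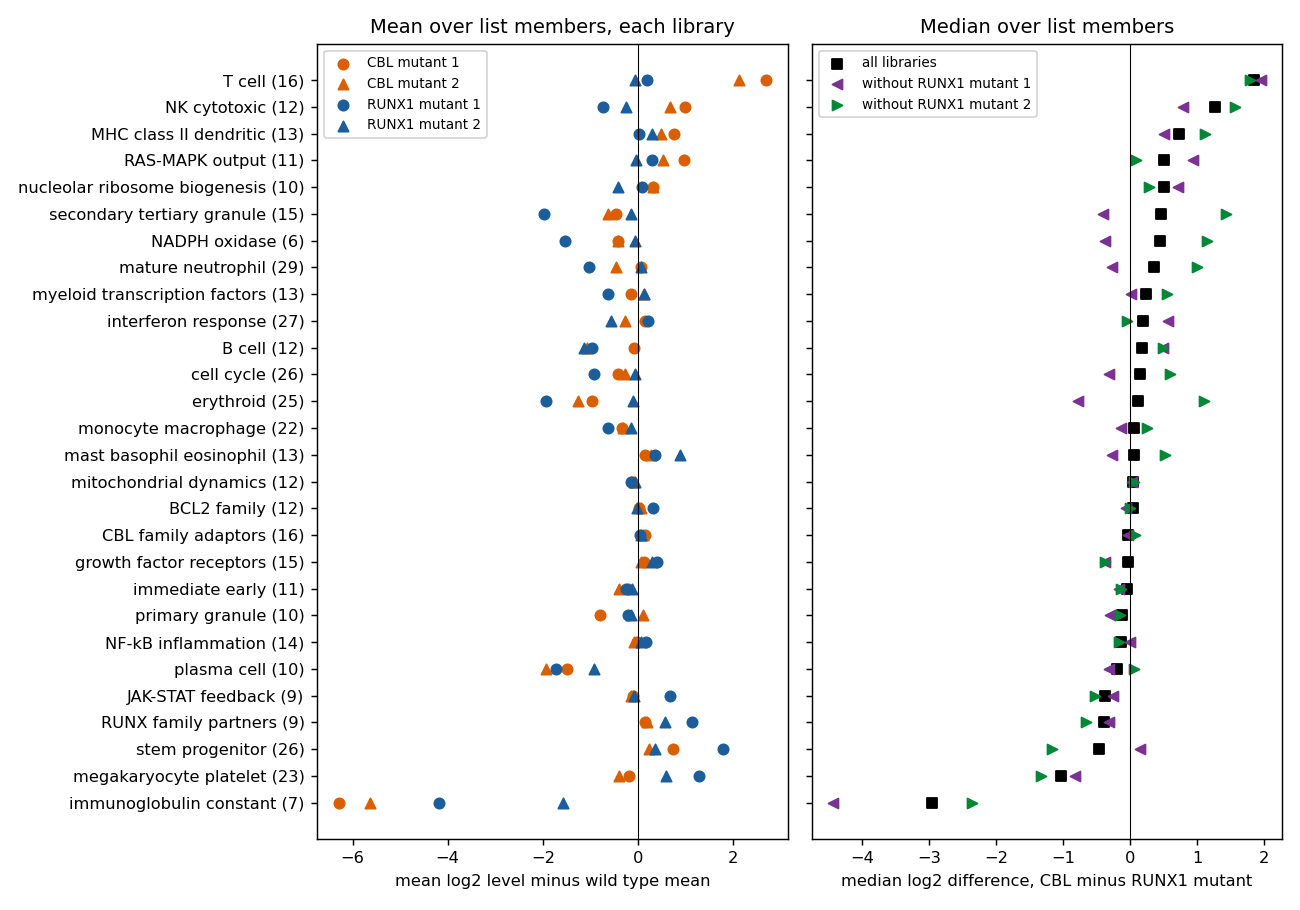
Left, the mean log2(TPM + 1) level of each gene list in the 4 libraries, after scaling between libraries and less the mean of the wild type. Right, the median log2 difference CBL minus RUNX1 mutant over the same members with all libraries and without either RUNX1 mutant library; the number of genes tested is in brackets, and the secondary granule, neutrophil, NADPH oxidase and erythroid medians are among those that cross 0, while those of the T cell, NK cell, megakaryocyte and immunoglobulin lists do not.

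Of 13 MHC class II and dendritic cell genes tested, 2 passed the filter through the CBL mutant pair alone, Ciita among them. Another 2 passed through the RUNX1 mutant pair alone, so counts over the 13 lean towards the group that let a gene pass. None was called, and the median log2 difference was 0.72. The libraries of 8 genes did not overlap and were higher in the CBL mutant. Another 2 did not overlap and were higher in the RUNX1 mutant, and over all genes tested these shares were 19.3% and 18.7%. H2-Aa, a class II chain, was listed at 73.6 and 59.7 TPM against 29.3 and 36.6 TPM (1.12 ± 0.374, adjusted p = 0.238), and Ciita, the class II transactivator, at 2.35 and 1.86 TPM against 0.537 and 0.767 TPM (0.95 ± 0.294, adjusted p = 0.205). Among 10 nucleolar genes Nolc1, an assembly factor of the nucleolus, was called, at 41.0 and 43.1 TPM against 34.3 and 19.4 TPM (0.81 ± 0.132, adjusted p = 0.0462). Over all genes tested, 0.788% were called in that direction, and the list's median was 0.50. The call of Nolc1 was lost without either CBL mutant library. Interferon response (27 genes, median 0.19), NF-kB (14 genes, -0.14), BCL2 family (12 genes, 0.04) and mitochondrial dynamics (12 genes, 0.04) lists held no called gene.

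For the called genes, the wild type and double mutant libraries can be placed on either side of the midpoint between both single mutants, as a description with no test. Of the 94 genes higher in the CBL mutant, 43 had both the wild type and the double mutant on the RUNX1 mutant side, Tcf7, Lck, Gzma and Npy among them. Another 21 had the wild type on the CBL mutant side and the double mutant on the RUNX1 mutant side, as Mecom, Cldn1 and Lmo1 did, and 7 had the reverse, as Ccnd1 did. Of the 59 genes higher in the RUNX1 mutant, 15 had both on the RUNX1 mutant side, among them Ngfr, Pf4 and Afdn, and 13 had the double mutant there and the wild type on the CBL mutant side, among them Runx1, Gng11 and Hdc.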

How the data were processed

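Gene expression was measured by RNA sequencing, and 4 HSPC groups of 2 libraries from individual mice entered the fit. Named as tools are kallisto, bcl2fastq and CASAVA 1.8, and as build mm10, per the submitters' processing notes. The kallisto version, the annotation and the joining of transcripts to genes are not given in the sources used here. The deposited values are TPM per Ensembl gene and library, summing to between 933370 and 981994 per library, so they carry no read numbers and no scaling between libraries.

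TPM were scaled by unweighted trimmed mean factors (TMM, trimming 0.3 of log ratios and 0.05 of levels), and genes with 1 TPM or more in at least 2 of the 4 CBL and RUNX1 mutant libraries were tested on log2(TPM + 1), a scale that understates changes of low genes, with limma 3.58.1 in R 4.3.3 (4 residual degrees of freedom, trend and robust moderation, two-sided, Benjamini-Hochberg, called under 0.05). The SE thus rests on the spread of all 8 HSPC libraries, taken as equal in every group. The replicate SD was 0.708 in the RUNX1 mutant and 0.282 to 0.372 in the other groups. The SE and p of this contrast can therefore be too small. The test was tried on simulated data. Members and lists were chosen with earlier results of these data known, so lists have counts and medians but no test.

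Named by rule were Cbl, Runx1, Mecom and Ngfr, per direction the 12 largest called differences at a mean log2 level of at least 2 without overlap (predicted genes and V, D and J segments left out), chosen marker members of each list with up to 4 called members per direction, and per direction the 6 largest ratios within the RUNX1 mutant pair. Genes named beyond these, such as Hoxb3, Ccnd2, single receptor segments and the examples of the last report paragraph, were chosen after their values were seen. Gene positions are from the GENCODE annotation of GRCm38 and promoter sequences from RefSeq. Alternatives were other scalings, pseudocounts of 0.1 and 5, other filters, other sets of libraries, array weights, a replicate block, and leaving out each library. Genes linked to the Y chromosome were not tested, since none reached 1 TPM. A few list members that the rule names are not reported here.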

Additional observations from a re-analysis of the deposited data

How the results depend on the processing

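The total of 153 called genes, 94 higher in the CBL mutant and 59 in the RUNX1 mutant, fell to 75 (42 and 33) with a filter at 5 TPM, to 99 in the fit of all 12 libraries (36 higher in the RUNX1 mutant), to 24 (16 and 8) with array weights and to 15 (11 and 4) when the log2 difference had to exceed 1. The 4 compared libraries alone, with 2 residual degrees of freedom, gave 3 (3 and 0). With a pseudocount of 0.1, 55 genes were higher in the CBL mutant. Leaving out 1 library gave 8 to 2021 in all, 7 to 1098 higher in the CBL mutant and 1 to 923 higher in the RUNX1 mutant; the low ends came from a fit without a wild type library and the high ends from one without RUNX1 mutant library 2. With the replicate number as a block, the count was 89 (56 and 33) over 8 libraries and 0 (0 and 0) over the 4 alone, where 992 genes had an unadjusted p under 0.05 by limma; the labels do not pair the samples, and same-numbered deviations correlated by 0.0301 to 0.194 between groups. Of the 153 genes, 152 were also called with RLE scaling, 112 with a pseudocount of 5, 108 with unscaled TPM, 99 with no filter and 96 with a pseudocount of 0.1. None of the 39 called named genes changed direction under the alternatives run, but uncalled genes did without RUNX1 mutant library 1, as Kit (-0.82 to 0.48), Ngp (1.13 to -0.07), Klf1 (0.47 to -0.76) and Mki67 (0.02 to -0.57). Unscaled TPM moved the median of all genes to -0.11. Of 29 list medians, 4 changed sign with unscaled TPM, 9 without RUNX1 mutant library 1 and 4 without each of RUNX1 mutant library 2 and CBL mutant libraries 1 and 2. The cause of these shifts was not tested. With 2 libraries per group and no read numbers, the precision of low TPM values is unknown.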

Other observations

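Outside the lists, Mif, Cycs, Mthfd1l and Lgals1, chosen after their values were seen, were called higher in the CBL mutant. Mif, a cytokine with enzyme activity, was listed at 496 and 514 TPM in the CBL mutant and at 315 and 231 TPM in the RUNX1 mutant (1.04 ± 0.137, adjusted p = 0.027), and Cycs, cytochrome c of the respiratory chain, at 39.0 and 43.8 TPM against 30.8 and 24.5 TPM (0.70 ± 0.118, adjusted p = 0.0486). Mthfd1l, a mitochondrial folate enzyme, was listed at 25.7 and 28.7 TPM against 17.7 and 13.8 TPM (0.88 ± 0.11, adjusted p = 0.022). Lgals1, galectin 1, was listed at 415 and 495 TPM against 82.8 and 134 TPM (2.22 ± 0.362, adjusted p = 0.0467).

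Tie1, Podxl and Scarf1, also chosen after their values were seen, were called higher in the RUNX1 mutant. Tie1, an endothelial receptor kinase, was listed at 0.289 and 0.154 TPM against 6.57 and 4.69 TPM (-2.31 ± 0.244, adjusted p = 0.0135), Podxl, a sialomucin of stem and endothelial cells, at 0.102 and 0.143 TPM against 4.12 and 1.66 TPM (-1.60 ± 0.256, adjusted p = 0.0422), and Scarf1, a scavenger receptor, at 0.254 and 0.116 TPM against 16.8 and 5.93 TPM (-3.10 ± 0.303, adjusted p = 0.0114). The endothelial marker genes of the lists were divided. Cdh5 was under 0.1 TPM in all 4 libraries. Kdr stood at 0.0163 and 0 TPM in the CBL mutant and at 1.88 and 0.225 TPM in the RUNX1 mutant. Emcn stood at 0 and 0 TPM against 0.46 and 0.0434 TPM, and neither it nor Kdr passed the filter. Pecam1, at 28.6 and 32.6 TPM against 75.2 and 23.3 TPM, overlapped between the groups. Of the stroma, endothelium and osteoclast list, 3 genes were tested and 0 were called.

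The widest called difference of all was that of the processed pseudogene Gm15272, at 495 and 676 TPM in the CBL mutant and at 1.23 and 0 TPM in the RUNX1 mutant, with 825 and 863 TPM in the double mutant and 0.954 and 0 TPM in the wild type (8.69 ± 0.424, adjusted p = 0.00158). Predicted genes are outside the naming rule, and it was picked after its value was seen. Reads of a processed pseudogene can come from its parent gene.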
